A study of Mus musculus with 2 samples.

Results

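The Hox genes are transcription factor genes that lie in clusters named a to d. They were taken from the deposited gene table as every symbol made of Hoxa, Hoxb, Hoxc or Hoxd followed by a number alone, which gave 39 of 32285 genes: 11 in Hoxa, 10 in Hoxb, 9 in Hoxc and 9 in Hoxd. The study profiled single cells of whole dissociated mouse testis from a Dot1L conditional knockout (cKO, Dot1L fl/delta; Ddx4-Cre+) and a control (Dot1L fl/+; Cre-), with 1 library per genotype. DOT1L is the methyltransferase of a lysine in the core of histone H3. Ddx4 is a germ cell gene, so its Cre acts in germ cells, while the somatic cells of the cKO keep the fl/delta genotype against fl/+ in the control. Both genotypes carry a floxed allele, and the labels name no number, age or strain of animals.

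Hox proteins bind DNA through a homeodomain, usually beside TALE cofactors of the Pbx, Meis and Pknox families, and give cells their place along the body axis in the embryo. Within a cluster the genes of low number are used early and anteriorly, those of high number late and posteriorly. Trithorax proteins keep Hox clusters active and Polycomb proteins keep them silent. DOT1L is best known in this setting from leukaemias with a rearranged Kmt2a gene, in which it sustains Hoxa transcription. Hoxa4 transcripts have long been known in mouse spermatocytes and spermatids.

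Promoters are shown for 4 members that the results turn on and that had an entry in the RefSeq table (GRCm38.p6), each from 250 bases before to 50 bases after the annotated start. Hoxd8 was the member with the most UMIs after Hoxa4 and lay further apart between the libraries than Hoxa4. Its neighbour Hoxd9 was found in Leydig-like and mesenchymal-like cells. Hoxa3 and Hoxa9 lie in 1 cluster and were highest at different germ cell stages. Capitals mark matches on either strand to the CRE TGACGTCA, the CCAAT box CCAAT, the TATA box TATAAA and the GC box GGGCGG. The Hoxd8 promoter lies at chr2:74704365-74704664 (+), the Hoxd9 promoter at chr2:74697513-74697812 (+), the Hoxa3 promoter at chr6:52213018-52213317 (-) and the Hoxa9 promoter at chr6:52227321-52227620 (-).
Hoxd8: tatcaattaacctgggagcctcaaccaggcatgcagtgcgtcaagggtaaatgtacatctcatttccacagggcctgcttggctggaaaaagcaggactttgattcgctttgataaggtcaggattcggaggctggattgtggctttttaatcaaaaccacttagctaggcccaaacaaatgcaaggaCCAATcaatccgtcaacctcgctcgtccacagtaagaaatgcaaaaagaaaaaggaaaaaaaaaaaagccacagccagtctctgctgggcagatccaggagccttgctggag
Hoxd9: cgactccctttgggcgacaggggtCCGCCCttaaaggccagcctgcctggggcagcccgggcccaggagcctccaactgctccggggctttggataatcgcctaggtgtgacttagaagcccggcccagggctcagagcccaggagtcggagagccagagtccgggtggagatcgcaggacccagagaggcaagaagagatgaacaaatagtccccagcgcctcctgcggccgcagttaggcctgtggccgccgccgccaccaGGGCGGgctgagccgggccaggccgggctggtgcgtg
Hoxa3: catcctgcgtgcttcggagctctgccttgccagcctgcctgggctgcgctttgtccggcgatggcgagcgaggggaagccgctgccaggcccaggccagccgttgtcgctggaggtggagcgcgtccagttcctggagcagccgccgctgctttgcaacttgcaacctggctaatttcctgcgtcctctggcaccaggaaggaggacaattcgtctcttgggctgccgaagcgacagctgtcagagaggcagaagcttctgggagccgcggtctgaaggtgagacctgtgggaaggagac
Hoxa9: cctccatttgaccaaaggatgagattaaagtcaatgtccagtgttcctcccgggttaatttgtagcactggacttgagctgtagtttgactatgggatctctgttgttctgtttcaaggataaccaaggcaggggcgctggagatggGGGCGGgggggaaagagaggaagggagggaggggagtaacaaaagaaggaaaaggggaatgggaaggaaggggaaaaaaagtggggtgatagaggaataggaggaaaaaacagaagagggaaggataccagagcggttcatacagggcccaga
The Hoxd8 window held 1 CCAAT box that begins 62 bases before the start, 46.7% G and C, and 6 CpG dinucleotides. The Hoxd9 window held 2 GC boxes, 68.3% G and C, and 20 CpG. The Hoxa3 window held none of these motifs, 64.0% G and C, and 20 CpG, and the Hoxa9 window held 1 GC box, 49.7% G and C, and 4 CpG. Over the 24 promoters of the 22 members in the table, the median was 57.7% G and C and 14.5 CpG, against 52.7% and 7 over all 32851 promoters. A CCAAT box stood in 62.5% of the Hox promoters and 37.4% of all promoters, a TATA box in 16.7% and 13.6%, and a GC box in 41.7% and 35.7%. The CRE was in 0% and 1.79%, the MYB core AACNG in 79.2% and 80.3%, and the Hox-Pbx site TGATNNAT in 16.7% and 8.85%. Both strands were searched and overlapping matches of different motifs were each counted. Hoxa4, Hoxb2, Hoxb3, Hoxb5, Hoxb6, Hoxb7, Hoxb9, Hoxb13, Hoxc5, Hoxc6 and Hoxc8 to Hoxc13 were among the members with no entry.

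The cKO library held 20601 barcodes with 156518838 UMIs, and the control library 17408 barcodes with 155487418 UMIs. A UMI (unique molecular identifier) stands for 1 captured transcript. After filtering, 18102 cKO cells and 15553 control cells were kept and fell into 21 clusters, each with cells of both libraries. Cells were clustered without the Hox genes and without Dot1l, and clusters were named "like" a cell type from marker genes. The clusters 19, 12, 6, 14, 4, 13, 11, 3, 8 and 5 are ordered here as germ cell stages. Cluster 6 had its best match in the early spermatocyte list but the leading gene Piwil1 of a later list, so it has no name. Its 12 mid to late spermatocyte markers summed to 11408 CPM in the cKO and 12150 CPM in the control, and its 11 early spermatocyte markers to 2446 and 2518 CPM. CPM scales the UMIs of a gene to a total of 1000000 UMIs in the cells summed. Dot1l stood at 5.85 CPM in cKO and 44.2 CPM in control round spermatid-like cells, a log2 ratio of −2.92 (95% counting interval −3.13 to −2.71). In spermatogonium-like cells it stood at 30.9 and 56.6 CPM. The labels do not say which exons are deleted, and reads from the 3′ end lie outside an internal deletion, so this count does not check it. The libraries shared 102 barcodes, 0.586% of those in the control.

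Free RNA, measured from 24 spermatid markers in somatic cells, came to 1848 UMIs per cKO cell and 1358 per control cell. By this estimate it made up 25.2% of the UMIs of cKO and 16.4% of those of control spermatogonium-like cells, 31.4% and 21.6% in early spermatocyte-like cells, and 5.07% and 3.16% in cluster 6. In mid to late spermatocyte-like cells the shares were 10.0% and 6.14%, in round spermatid-like cells 8.51% and 5.73%, and in elongating spermatid-like cells 20.7% and 13.3%. These shares take every germ cell to hold that same number of UMIs, which was not tested. In early spermatocyte-like cells spermatid markers stood at only 0.190 and 0.186 times their level over all cells. The 31.4% and 21.6% are thus too high there. By this estimate the cKO library had the larger share in each of these germ cell classes. With 1 library per genotype there is no replicate check and no test, and every interval covers counting error only. A level here is a share of UMIs and not a number per cell, so fewer transcripts of a gene and more of all others cannot be told apart.

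Hox UMIs were counted in both libraries at every stage, and over all cells 2 genes, Hoxa4 and Hoxd8, held most of them. In clusters 19 and 12 neither gene exceeded the free RNA estimate, which is too high in cluster 12. Over all kept cells Hoxa4 had 8278 UMIs in the cKO and 6769 in the control, and Hoxd8 had 5858 and 2470. In round spermatid-like cells the other 37 members together came to 12.5% of Hox UMIs in the cKO and 15.3% in the control. Hoxd12, Hoxd11 and Hoxd1 had no UMI in any kept cell of either library. The 15 members that reached 20 UMIs over both libraries in at least 1 cell class are described one by one: Hoxa3, Hoxa4, Hoxa5, Hoxa7, Hoxa9, Hoxb3, Hoxb5, Hoxb6, Hoxb9, Hoxc5, Hoxc6, Hoxc8, Hoxc9, Hoxd8 and Hoxd9. The other 24 had at most 49 UMIs in the cKO and 26 in the control, both in Hoxd3.

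**Figure D1:**
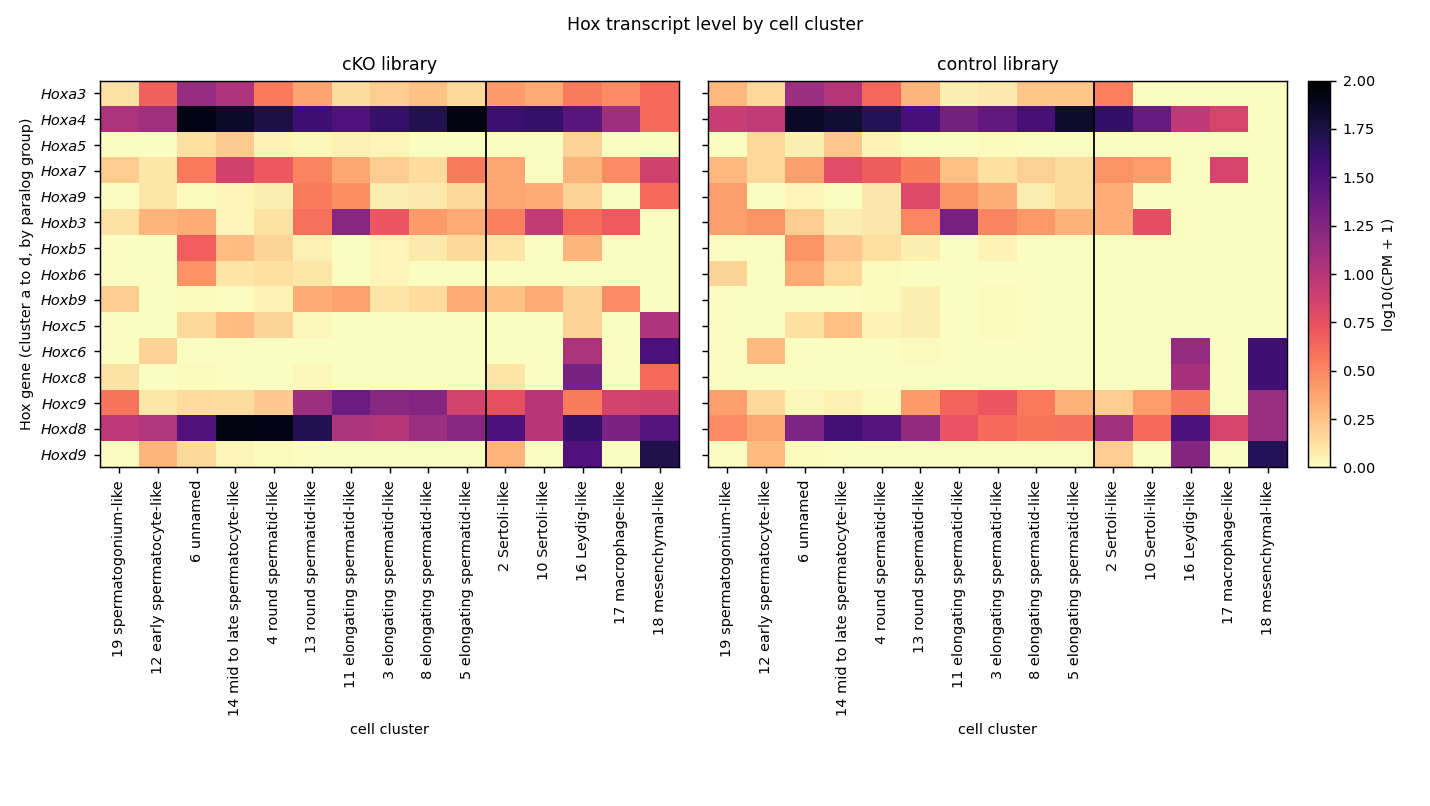
Level of the 15 Hox members with 20 or more UMIs in a cell class, as log10(CPM + 1) by colour, in each cell cluster of the cKO library (left) and the control library (right), with germ cell clusters in stage order left of the black line and somatic clusters right of it. Hoxa4 is dark from cluster 6 onward in both libraries, and Hoxd8 is darker in the cKO. Hoxc6, Hoxc8 and Hoxd9 are dark in the Leydig-like cluster, and Hoxc6 and Hoxd9 also in the mesenchymal-like cluster.

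The summed level of all 39 members was higher in the cKO library from cluster 6 onward. It was also higher in early spermatocyte-like cells, where the part of free RNA is not known. It was 29.7 CPM in cKO and 28.8 CPM in control spermatogonium-like cells (log2 ratio 0.04, interval −0.44 to 0.54) and 29.2 and 15.5 CPM in early spermatocyte-like cells (0.91, 0.35 to 1.51). In those early cells the free RNA estimate for Hoxa4 was 70.2 and 22.1 UMIs, against 45 and 17 counted, and for Hoxd8 it was 49.7 and 8.06 UMIs, against 37 and 3 counted. That estimate is too high for this class, so how much of the 0.91 came from free RNA was not settled. Cluster 6 had 138 and 107 CPM (0.37, 0.31 to 0.43), mid to late spermatocyte-like cells 175 and 118 CPM (0.57, 0.48 to 0.66), round spermatid-like cells 133 and 74.3 CPM (0.83, 0.77 to 0.90) and elongating spermatid-like cells 82.1 and 43.9 CPM (0.90, 0.808 to 0.999). The highest sum of the germ cell classes was in mid to late spermatocyte-like cells in both libraries.

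Without Hoxa4 and Hoxd8 the sums were smaller, and not every class was higher in the cKO. In spermatogonium-like cells Hoxa4 had 33 and 14 UMIs and Hoxd8 had 26 and 4. The other members together were lower in the cKO there, from few UMIs. The other members came to 20.8 CPM in cKO and 18.8 CPM in control mid to late spermatocyte-like cells (log2 ratio 0.14, interval −0.11 to 0.39), an interval that includes 0. They came to 16.6 and 11.4 CPM in round spermatid-like cells (0.55, 0.37 to 0.72) and 27.9 and 11.8 CPM in elongating spermatid-like cells (1.24, 1.07 to 1.42).

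The clusters of genes differed in how far the libraries lay apart. In the spermatid-like classes the Hoxd sums came mostly from Hoxd8 and the Hoxc sums mostly from Hoxc9, so these are not differences of whole clusters. In round spermatid-like cells the Hoxa sum was 53.9 CPM in the cKO and 50.3 CPM in the control (log2 ratio 0.10, interval 0.01 to 0.19). The Hoxb sum was 2.88 and 1.62 CPM (0.83, 0.37 to 1.30), the Hoxc sum 6.27 and 1.02 CPM (2.61, 2.14 to 3.12) and the Hoxd sum 69.4 and 21.4 CPM (1.69, 1.58 to 1.81). Hoxd thus held 52.4% of Hox UMIs in cKO round spermatid-like cells and 28.8% in control ones, and Hoxa 40.7% and 67.6%. In elongating spermatid-like cells the Hoxa sum was 46.0 and 30.7 CPM, Hoxb 8.23 and 5.88 CPM, Hoxc 16.9 and 3.72 CPM, and Hoxd 10.9 and 3.58 CPM. In cluster 6 Hoxb reached 7.14 CPM in the cKO and 3.79 CPM in the control, mostly from Hoxb5 and Hoxb6. By paralog group in round spermatid-like cells, groups 1 to 4 had a log2 ratio of 0.18 (0.09 to 0.27), groups 5 to 8 of 1.54 (1.44 to 1.65) and groups 9 to 13 of 0.999 (0.72 to 1.28). Most UMIs of groups 5 to 8 there were of Hoxd8. In elongating spermatid-like cells the same groups had 0.57 (0.45 to 0.68), 1.56 (1.27 to 1.86) and 1.91 (1.66 to 2.17).

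**Figure D2:**
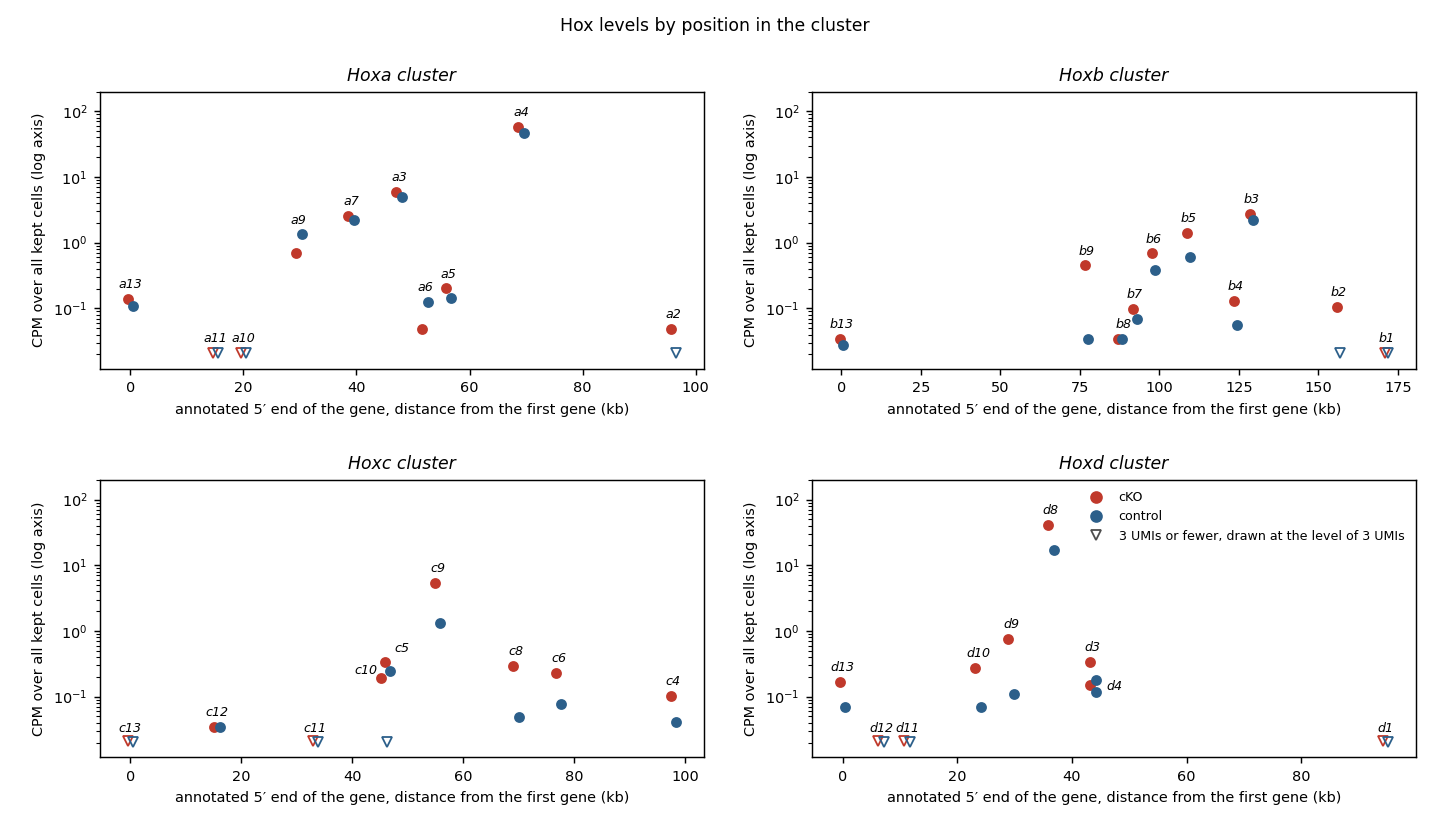
Level of the Hox genes shown, over all kept cells (CPM, log axis) against the distance of its annotated 5′ end from the first gene of its cluster (kb), for the cKO (red) and control (blue) libraries. Levels do not follow position: Hoxa4 and Hoxd8 stand far above their neighbours, and genes with 3 UMIs or fewer are drawn at that level as open triangles.

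Position in the cluster did not order the levels. The Hoxa cluster spans 105 kb of chromosome 6 on the minus strand, Hoxb 174 kb of chromosome 11, Hoxc 116 kb of chromosome 15 and Hoxd 96.8 kb of chromosome 2, the last 3 on the plus strand (GRCm38, GENCODE vM21). Hoxd8 (chr2:74704615-74707933) had 40.6 CPM over all kept cKO cells and 17.1 CPM over control cells. Its neighbour Hoxd9 had 0.755 and 0.110 CPM, and Hoxd3 on the other side had 0.339 and 0.179 CPM. Hoxa4 (chr6:52189671-52191753) had 57.3 and 46.7 CPM, while Hoxa5 beside it had 0.201 and 0.145 CPM. The annotated spans of Hoxa4, Hoxa5 and Hoxa6 lie inside that of Hoxa3 on the same strand, and those of Hoxc10, Hoxc9, Hoxc8 and Hoxc6 overlap that of Hoxc5. The last 400 bases of the longest transcripts shared no 40-base word with another gene, except 3.60% of the words in Hoxa6 and 4.99% in Hoxb4.

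Of the anterior groups, Hoxa4, which patterns the neck vertebrae in the embryo, was the leading member at most stages. In spermatogonium-like cells it had 33 UMIs in the cKO and 14 in the control, against 46.7 and 15.2 UMIs estimated as free RNA, so it did not exceed background there. It then stood at 82.9 CPM in the cKO and 70.4 CPM in the control in cluster 6 (log2 ratio 0.24, interval 0.16 to 0.31) and at 69.0 and 62.9 CPM in mid to late spermatocyte-like cells (0.13, −0.00 to 0.27). Round spermatid-like cells had 47.1 and 41.7 CPM (0.18, 0.08 to 0.27). Levels were low in cluster 11, the first elongating cluster, with 30.7 and 19.6 CPM (0.65, 0.34 to 0.95), and high again in cluster 5, the last, with 84.4 and 66.4 CPM (0.35, 0.05 to 0.64). Of the 10 stage clusters, 8 had more Hoxa4 UMIs than the free RNA estimate in both libraries, and the level was higher in the cKO in those 8, by less than 1.5-fold in all of them but clusters 11 and 3. A UMI of Hoxa4 was found in 61.2% (exact interval 57.1 to 65.1) of cKO and 64.6% (61.1 to 68.0) of control mid to late spermatocyte-like cells, at median depths of 16975.5 and 18776.5 UMIs. Macrophage-like cells, set beside them as cells that hold free RNA, had 3.16% and 2.27% at median depths of 2613.5 and 2942 UMIs. With each cell thinned to 2000 UMIs the shares were 12.1% and 13.3% in mid to late spermatocyte-like and 1.90% and 0% in macrophage-like cells.

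Hoxa3, a gene needed for the thymus, parathyroid and neck, was high at fewer stages than Hoxa4. It had 13.2 CPM in the cKO and 12.2 CPM in the control in cluster 6 (log2 ratio 0.12, interval −0.07 to 0.30), then 9.58 and 9.29 CPM in mid to late spermatocyte-like cells (0.04, −0.32 to 0.41). Round spermatid-like cells had 2.09 and 2.17 CPM and elongating ones 0.559 and 0.325 CPM, the last no more than the free RNA estimate. Its intervals include 0 in these classes. Hoxb3, a hindbrain gene in the embryo, had its highest level later, in elongating cluster 11, with 15.96 CPM in the cKO and 19.3 CPM in the control (log2 ratio −0.28, interval −0.63 to 0.08). In cluster 13 just before it Hoxb3 had 2.99 and 2.19 CPM (0.45, −0.17 to 1.07), and in cluster 3 just after it 4.17 and 2.22 CPM (0.91, 0.27 to 1.55). In cluster 6 it had 51 UMIs in the cKO and 21 in the control, or 1.21 and 0.612 CPM (0.99, 0.23 to 1.80).

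**Figure D3:**
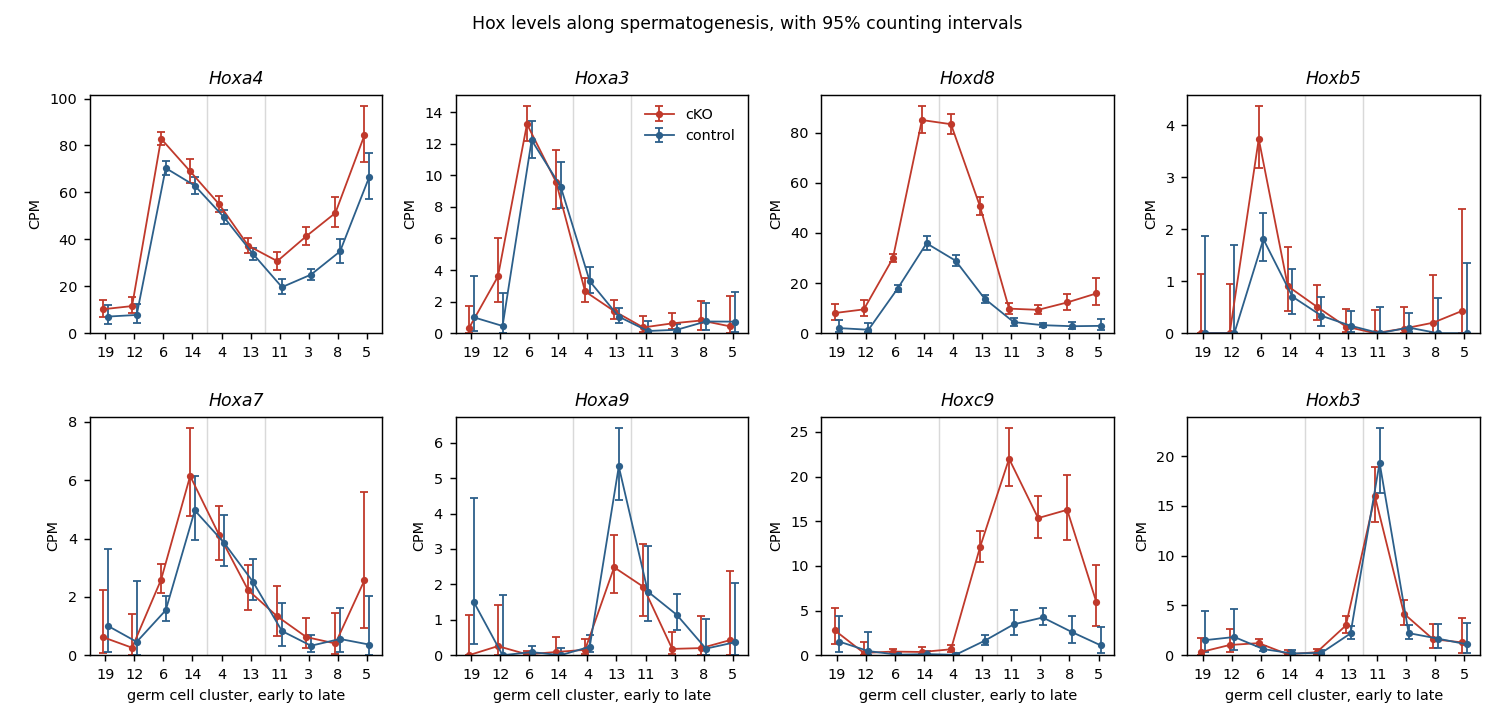
Level (CPM) of 8 Hox genes in the 10 germ cell clusters, from spermatogonium-like (19) to the last elongating spermatid-like cluster (5), in the cKO (red) and control (blue) libraries, with 95% counting intervals and grey lines before the round and the elongating spermatid-like clusters. Hoxd8 and Hoxc9 lie apart between the libraries, Hoxa3 nearly overlaps, and Hoxa9 is lower in the cKO at its peak in cluster 13.

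Of the central groups, Hoxd8, one of the central genes of its cluster, lay further apart between the libraries than Hoxa4. It had 29.9 CPM in the cKO and 17.7 CPM in the control in cluster 6 (log2 ratio 0.75, interval 0.61 to 0.89). Both libraries peaked at the next stage, mid to late spermatocyte-like cells, at 85.1 and 35.9 CPM (1.25, 1.10 to 1.39). The cKO stayed near that level in round cluster 4, with 83.4 CPM against 28.9 CPM in the control (1.53, 1.39 to 1.67), and had 50.6 CPM against 13.8 CPM in round cluster 13 (1.88, 1.68 to 2.08). In elongating spermatid-like cells it had 10.6 and 3.37 CPM (1.65, 1.33 to 1.98). There 225 of 284 UMIs in the cKO and 77.0 of 114 in the control were at the level estimated for free RNA. In spermatogonium-like cells it had 26 and 4 UMIs, against 33.1 and 5.53 estimated as free RNA. Of the 10 stage clusters, 6 had more Hoxd8 UMIs than the free RNA estimate in both libraries, and Hoxd8 was higher in the cKO in those 6. The others were the first stages, 19 and 12, and the last elongating clusters, 8 and 5.

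The wider difference of Hoxd8 was also seen in the share of cells with a UMI. In round spermatid-like cells 68.7% (66.4 to 70.9) of cKO cells and 37.0% (34.8 to 39.3) of control cells had 1, at median depths of 19524 and 20646.5 UMIs. With each cell thinned to 2000 UMIs and 32 and 20 shallower cells left out, the shares were 13.8% and 4.63%. In mid to late spermatocyte-like cells they were 67.0% and 49.4%, and the log2 ratio of the shares was 1.08 after thinning, against 0.44 before. Macrophage-like cells had 5.06% and 2.27%, and 2.86% and 0% after thinning.

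The remaining central members had low levels with narrow peaks. Hoxa7, a trunk gene, peaked in mid to late spermatocyte-like cells at 6.15 CPM in the cKO and 4.97 CPM in the control (log2 ratio 0.31, interval −0.17 to 0.79). Hoxb5, which positions the shoulder girdle, peaked in cluster 6 at 3.73 and 1.81 CPM (1.05, 0.615 to 1.497), as did Hoxb6, a rib-patterning gene, at 1.88 and 1.25 CPM (0.59, 0.03 to 1.16). A UMI of Hoxb5 was found in 11.7% of cKO and 7.13% of control cells of cluster 6, and in 1.13% of both after thinning. At its peak in mid to late spermatocyte-like cells Hoxa5, a gene of the lung and upper trunk, had only 7 UMIs in the cKO and 12 in the control, and Hoxc5 had 10 and 14.

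Of the posterior groups, Hoxc9, which sets thoracic identity in motor neurons, had the highest log2 ratios of the measured members. In each cluster up to round cluster 4 it had at most 17 UMIs in the cKO and 3 in the control. In round cluster 13 it reached 12.1 CPM in the cKO and 1.62 CPM in the control (log2 ratio 2.90, interval 2.37 to 3.47), and in elongating cluster 11 it reached 22.0 and 3.45 CPM (2.67, 2.06 to 3.34). Clusters 3 and 8 followed with 15.4 against 4.22 CPM (1.86, 1.47 to 2.27) and 16.3 against 2.60 CPM (2.65, 1.82 to 3.58). In the last cluster, 5, it had 14 and 3 UMIs. Of the 10 stage clusters, 7 had more Hoxc9 UMIs than the free RNA estimate in both libraries, and the level was higher in the cKO in those 7. In clusters 19, 6 and 5 of these the control had 3 UMIs or fewer, which is within the floor. Clusters 13, 11, 3 and 8 had more in both libraries.

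The share of spermatids with a UMI of Hoxc9 was also larger in the cKO, and at these levels and depths a cell without a UMI may still hold the transcript. A UMI of Hoxc9 was present in 12.3% (11.2 to 13.6) of cKO and 3.31% (2.73 to 3.97) of control elongating spermatid-like cells, and in 2.68% and 0.648% after thinning, with median depths of 6734 and 8226.5 UMIs. In round spermatid-like cells the shares were 7.68% and 1.69%, and 0.501% and 0.171% after thinning. The most UMIs in a single round spermatid-like cell were 13 in the cKO and 3 in the control. Free RNA was estimated at 29.97 of 450 UMIs in cKO and 5.89 of 120 in control elongating spermatid-like cells.

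Hoxa9, a regulator of blood progenitors that is active in leukaemia, was the 1 measured member past 1.5-fold lower in the cKO. In round spermatid-like cells it had 42 UMIs in the cKO and 117 in the control, or 1.19 and 2.79 CPM (log2 ratio −1.23, interval −1.78 to −0.71). Its peak in cluster 13 was 2.48 and 5.33 CPM (−1.10, −1.67 to −0.57), while in cluster 11 it had 1.93 and 1.80 CPM (0.11, −1.04 to 1.28). Hoxb9, a gene of the rib cage, was sparse, with 65 UMIs over all kept cKO cells and 5 over control cells. It had 21 and 4 UMIs in round spermatid-like cells (log2 ratio 2.64, interval 1.07 to 4.64) and 20 and 1 in elongating ones, too few in the control for a ratio.

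Some sparse members had their highest germ cell level at the first stage. Hoxb7 had 6 of its 8 germ cell UMIs in the cKO and 8 of 9 in the control in spermatogonium-like cells, or 1.86 and 4.04 CPM, and the free RNA estimate was 0.0790 and 0.0224 UMIs. Hoxb4 had 4 of 10 and 4 of 8 there, and Hoxb8 had 2 of 4 and 5 of 5. Hoxb4, Hoxb7, Hoxb8, Hoxb13, Hoxa10 and Hoxc13 had their highest germ cell level in this cluster in both libraries. For Hoxb13, Hoxa10 and Hoxc13 the counts there were within the floor of 3 UMIs in both libraries, so no peak can be read from them. Over all germ cell clusters Hoxb13 had 5 UMIs in the cKO and 4 in the control, Hoxa10 had 3 and 3, and Hoxc13 had 1 and 2. This cluster held 3234059 and 1980252 UMIs, against 42042922 and 34337074 in cluster 6, so 1 UMI weighs more in it. Among the 11 members with 50 or more germ cell UMIs, 8 had their highest level in the same cluster in both libraries. The exceptions were Hoxa4, highest in cluster 5 in the cKO and cluster 6 in the control, Hoxb9, in 11 and 13, and Hoxc9, in 11 and 3. In the cKO, Hoxa4 was nearly level between clusters 5 and 6, and 68.2 of its 197 UMIs in cluster 5 were estimated as free RNA. Hoxb9 had only 5 germ cell UMIs in the control. Whether these genes peak at different stages in the libraries was not tested.

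Members were counted as higher or lower when they had 50 or more UMIs over both libraries in a class and differed by over 1.5-fold, which is a rule of size and no test. In cluster 6, 5 of 7 measured members were higher in the cKO (Hoxd8, Hoxa7, Hoxb6, Hoxb5 and Hoxb3) and 0 lower, against 13% higher and 3.47% lower of all genes. Their median log2 ratio was 0.75, against 0.05 for all genes. In mid to late spermatocyte-like cells 1 of 4 was higher (Hoxd8) and 0 lower, against 17.5% and 3.92%, with a median of 0.22 against 0.10. In round spermatid-like cells 2 of 7 were higher (Hoxd8 and Hoxc9) and 1 lower (Hoxa9), against 20% and 6.68%, with a median of 0.18 against 0.12. In elongating spermatid-like cells 3 of 5 were higher (Hoxd8, Hoxa4 and Hoxc9) and 0 lower, against 34.8% and 4.43%, with a median of 0.60 against 0.38. No member reached 50 UMIs in spermatogonium-like cells, where 10.7% of all genes were higher and 5.44% lower. Only Hoxa4 did so in early spermatocyte-like cells, where it stayed within 1.5-fold and 8.71% of genes were higher and 3.62% lower.

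**Figure D4:**
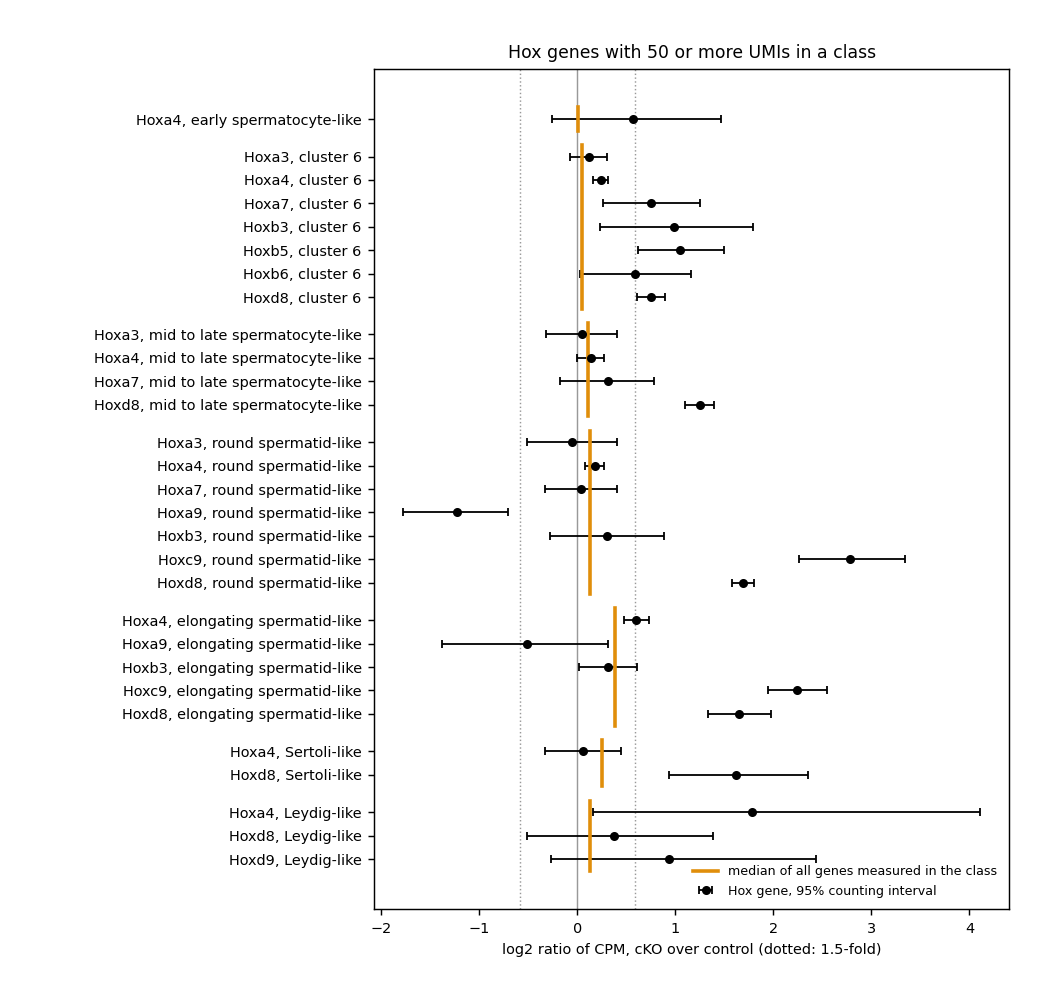
Log2 ratio of CPM, cKO over control, of each Hox gene with 50 or more UMIs in a class (points, with 95% counting intervals), beside the median of all genes measured in that class (orange) and the 1.5-fold lines (dotted). Hoxd8 and Hoxc9 lie right of the orange line in every germ cell class shown, and Hoxa9 lies left of 0.

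The scaling moved these values most in elongating spermatids. The median log2 ratio of all genes there was 0.38, and with this median set to 0 the ratio was 1.27 for Hoxd8, 1.86 for Hoxc9, 0.22 for Hoxa4 and −0.07 for Hoxb3. The count then became 2 higher and 1 lower (Hoxa9), against 15.5% higher and 12.3% lower of all genes. Among all genes past 1.5-fold, the share that was higher in the cKO moved to 71.3% with this scaling, against 81.7% with class totals, in mid to late spermatocyte-like cells. The same shares were 62.2% against 75.0% in round and 55.7% against 88.7% in elongating spermatid-like cells.

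Leydig-like and mesenchymal-like cells held another set of Hox genes. In Leydig-like cells (373 in the cKO and 119 in the control, with 9 of 10 Leydig markers detected in each) Hoxd9, a limb and lower trunk gene, had 60 and 6 UMIs, or 30.9 and 16.2 CPM (log2 ratio 0.94, interval −0.27 to 2.44). Hoxc8, a thoracic gene, had 37 and 4 UMIs (0.82, −0.65 to 2.77) and Hoxc6 had 20 and 5 (−0.39, −1.84 to 1.38). Hoxd10 had 15 and 3 UMIs, Hoxc10 had 14 and 0, and Hoxd8 had 81 and 12, of which 35.7 and 2.59 were estimated as free RNA. For Hoxd9, Hoxc8, Hoxc6 and Hoxd10 that estimate was under 1 UMI in each library. Of 3 measured members 2 were called higher (Hoxd9 and Hoxa4) and 0 lower, against 24% and 6.05% of all genes. With a 20% mitochondrial limit the log2 ratio of Hoxd9 was 0.11, which ends its call. Hoxa4 had 54 UMIs in the cKO and 3 in the control, against 50.5 and 7.09 UMIs of estimated free RNA.

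Mesenchymal-like and macrophage-like cells were too few for a ratio, with 139 and 158 cells in the cKO and 38 and 44 in the control. In mesenchymal-like cells Hoxd9 had 16 UMIs in the cKO and 4 in the control, or 51.4 and 48.7 CPM, and Hoxc6 had 10 and 3, or 32.1 and 36.5 CPM. The Hoxb cluster had 0 UMIs there in both libraries, which allows up to 3 UMIs, or 9.64 CPM in the cKO and 36.5 CPM in the control. Of 10 macrophage markers 5 were detected in cKO and 2 in control mesenchymal-like cells, with sums of 4898 and 3445 CPM. In Leydig-like cells 10 and 5 were detected, with sums of 1778 and 784 CPM. Their part in these values was not tested. All Hox genes together had 33 UMIs in cKO and 3 in control macrophage-like cells.

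Hoxa4 and Hoxd8 counts in Sertoli-like cells did not exceed the free RNA estimate. All 12 Sertoli markers were detected in both libraries, with sums of 9956 CPM in the cKO and 8522 CPM in the control. The cells had median depths of 1001 UMIs in the cKO and 876 in the control, and spermatid markers there stood at 1.06 and 1.14 times their level over all cells. Hoxa4 had 175 and 86 UMIs, against an estimate of 258 and 107, and Hoxd8 had 126 and 21, against 183 and 39.1. Of these 2 measured members, Hoxd8 was called higher and none lower, against 24.5% and 3.77% of all genes.

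The antisense gene over Hoxd8 had the opposite sign to Hoxd8 from cluster 6 to cluster 3 in stage order. In the last clusters, 8 and 5, Hoxd8 did not exceed the free RNA estimate in the control. In the cKO it had 61 UMIs against an estimate of 54.7 in cluster 8, and 37 against 48.3 in cluster 5. Hoxd3os1 (chr2:74703248-74716130, minus strand) contains the whole of Hoxd8. Of the 10 stage clusters, 8 had more Hoxd3os1 UMIs than the free RNA estimate in both libraries, and it was lower in the cKO in those 8, clusters 6 to 5 in stage order. In early spermatocyte-like cluster 12 it had 6.67 CPM in the cKO and 13.7 CPM in the control (log2 ratio −1.04, interval −1.85 to −0.23). These came from 26 and 30 UMIs, against 84.3 and 45.97 estimated as free RNA, an estimate too high for this class. Hoxd3os1 had 87.0 CPM in the cKO and 134 CPM in the control in mid to late spermatocyte-like cells (log2 ratio −0.63, interval −0.74 to −0.52), and 69.0 and 103 CPM in round spermatid-like cells (−0.57, −0.65 to −0.50). Hoxb5os, which overlaps Hoxb5 and Hoxb6, had 27.4 and 22.2 CPM in cluster 6 (0.30, 0.17 to 0.44). Hoxaas3, which overlaps Hoxa3 to Hoxa7, had 2.996 and 0.810 CPM in round spermatid-like cells (1.89, 1.32 to 2.49), and Haglr, beside Hoxd1, had 23.3 and 27.7 CPM (−0.25, −0.38 to −0.12). The strand rule of the counting is not given in the sources used here, so reads of a Hox gene and its antisense partner may not have been separated. Of the 17 noncoding genes listed, 10 were in the files and 5 measured in round spermatid-like cells, 2 of them higher and 0 lower, against 20% and 6.68% of all genes, with a median log2 ratio of 0.22 against 0.12.

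**Figure D5:**
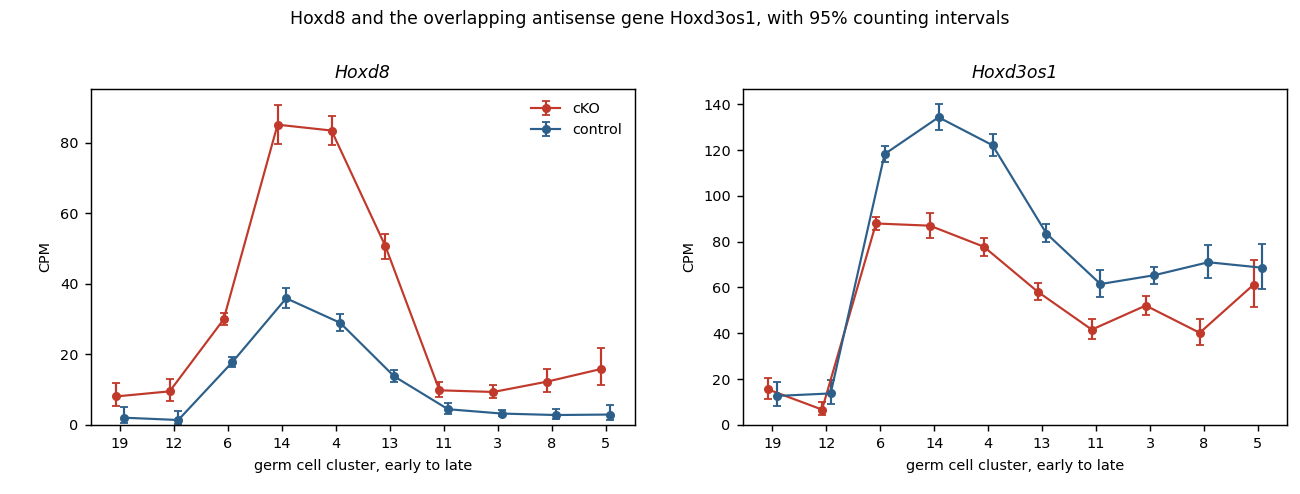
Level (CPM) of Hoxd8 and of the overlapping antisense gene Hoxd3os1 in the 10 germ cell clusters in stage order, in the cKO (red) and control (blue) libraries, with 95% counting intervals. From cluster 6 onward Hoxd8 is higher and Hoxd3os1 lower in the cKO. In cluster 8 Hoxd8 does not exceed the free RNA estimate in the control, and in cluster 5 in neither library.

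Genes that flank the clusters included some with ratios as wide as those of Hox members. Mtx2, a mitochondrial gene next to Hoxd, had 18.3 CPM in cKO and 6.15 CPM in control round spermatid-like cells (log2 ratio 1.58, interval 1.36 to 1.79), and Hnrnpa3, an RNA-binding protein gene, had 45.1 and 74.9 CPM (−0.73, −0.82 to −0.65). Of 17 flanking genes measured in that class, 2 were higher and 1 lower, against 20% and 6.68% of all genes, with a median of 0.23 against 0.12. The TALE cofactors had 3 of 7 measured genes higher and 0 lower there, against the same 20% and 6.68%, with a median of 0.58 against 0.12. Of this list Pbx3 had 5.68 and 2.57 CPM (1.14, 0.80 to 1.49) and Pbx4 had 156 and 104 CPM (0.58, 0.53 to 0.64). The other homeobox genes of the Hox and ParaHox clusters, such as Evx1 and Cdx2, were measured in no class.

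Regulators of Hox clusters had list medians of 0.14 to 0.18 in round spermatid-like cells, against 0.12 for all genes, of which 20% were higher and 6.68% lower. Trithorax and COMPASS genes had 2 of 8 measured members higher and 0 lower, with a median log2 ratio of 0.18, and Psip1, which tethers the Kmt2a complex to chromatin, had 114 CPM in the cKO and 59.0 CPM in the control (0.95, 0.88 to 1.02). Polycomb genes had 3 of 17 higher and 2 lower, with a median of 0.14. Of this list Phc2 had 4.18 and 1.55 CPM (1.43, 1.003 to 1.88), Pcgf6 had 22.9 and 13.2 CPM (0.79, 0.63 to 0.95) and Cbx7 had 7.41 and 11.4 CPM (−0.62, −0.84 to −0.40). DOT1L partners had 2 of 8 higher and 1 lower, which was Dot1l, with a median of 0.16. In cluster 6 Polycomb genes had 2 of 15 higher and 0 lower, against 13% and 3.47% of all genes, and Pcgf6 had 236 and 109 CPM (1.12, 1.06 to 1.17).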

How the data were processed

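The deposited files hold whole-number UMI counts per gene and cell barcode from a droplet kit that reads 3′ ends, and Cell Ranger 7.0.0 produced them, as written per the file headers. The build mm10 and Seurat 4.1.0 are named in the submitters' processing notes. Whether introns and which strand were counted is not given in the sources used here. The deposited matrices are filtered barcodes with at least 500 UMIs.

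Barcodes with under 300 genes or over 10% mitochondrial UMIs were left out (2150 cKO and 1510 control barcodes over the mitochondrial limit). Doublets were scored with Scrublet in Scanpy 1.11.5 at a threshold of 0.2, which removed 349 cKO cells (1.89%) and 344 control cells (2.16%) and caught 13.7% and 19.0% of simulated doublets, so doublets remain. Cells were scaled to 10000 UMIs and clustered on 2000 variable genes, 30 principal components and 20 neighbours with igraph 0.11.9 (Leiden, resolution 1.0). Hox genes, Dot1l, Tnp, Prm and histone genes were kept out of the variable genes. The graph, the choice of variable genes per library and the order of stages were settled after the clusters were seen. A cluster was named from 3 or more markers at least 1.5-fold above other clusters. Low-RNA clusters 1, 7, 15 and 20, hemoglobin-led cluster 0 and unnamed cluster 9 entered no class. Names are rebuilt here and may differ from the study's.

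UMIs were summed per class and library and divided by the class total (CPM). They count 3′ ends and were not divided by length. Intervals of 95% are exact Poisson, exact binomial for ratios, and Clopper-Pearson for shares of cells, and cover counting error only, as do floors of 3 UMIs. A ratio is given in the text from 20 UMIs over both libraries, with more than 3 UMIs in each. The ratio step was checked on simulated data. Python 3.11.15, SciPy 1.17.1 and pandas 2.3.3 were used.

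The members, the 7 gene lists and the comparisons were chosen with earlier results of these data known. Members with 20 or more UMIs over both libraries in a class are described singly, and of each list up to 4 genes with 100 or more UMIs and the largest ratios. Results for some genes of the lists are not reported here.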

Additional observations from a re-analysis of the deposited data

Results flagged for a closer look

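Cells outside the comparisons also held Hox transcripts, and in each such cluster the summed level of the 39 members was higher in the cKO library. In hemoglobin-led cluster 0 it was 126 CPM in the cKO and 80.5 CPM in the control. In unnamed cluster 9, led by spermatid genes such as Smcp and Odf1, it was 191 CPM in the cKO and 132 CPM in the control. The low-RNA clusters had 159 CPM in the cKO and 90.9 CPM in the control (cluster 1), 124 and 50.6 CPM (cluster 7), 83.4 and 72.5 CPM (cluster 15), and 101 and 56.5 CPM (cluster 20). The part of free RNA in these sums was not tested.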

How the results depend on the processing

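No paired analysis was possible because there was 1 library per genotype. No member past 1.5-fold changed sign under the alternatives run, while 5 ratios within 1.5-fold did. Hoxb3 in elongating spermatids had −0.07 with median-of-ratios scaling and −0.08 with equal weight of clusters, against 0.31. Over the alternatives Hoxa3 in mid to late spermatocytes ran from −0.14 to 0.24, Hoxa7 in round spermatids from −0.09 to 0.10, Hoxa4 in Sertoli-like cells from −0.20 to 0.27, and Hoxd8 in Leydig-like cells from −0.0042 to 1.02. Hoxd9 in Leydig-like cells ran from 0.11, with a 20% mitochondrial limit, to 1.55, with the mean over cells, against 0.94. With each log2 ratio of a single gene counted once per alternative, 242 such values stayed within the counting interval and 16 did not. With median-of-ratios scaling the log2 ratio of the summed Hox level was 0.47 in cluster 14 (mid to late spermatocyte-like), 0.71 in round spermatids and 0.52 in elongating spermatids. Without the 50 most abundant genes it was 0.71 in elongating spermatids, with the mean over cells 0.48 in cluster 14 and 0.79 in elongating spermatids, and with equal weight of clusters 0.79 in the last. It was 0.47 for mid to late spermatocytes with each cell in the class of its highest marker score and 0.45 at resolution 1.5.

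The counts past 1.5-fold are small, so 1 gene moves them. In elongating spermatid-like cells 1 member was lower, in place of 0, with median-of-ratios scaling, without the 50 most abundant genes, with a 20% mitochondrial limit, with classes by marker score and with the mean over cells. With classes by marker score 1 member was higher in spermatogonium-like, 2 in early and 4 in mid to late spermatocytes. At resolution 1.5 the count was 2 in early, 3 in mid to late spermatocytes and 1 in Leydig-like cells. In Leydig-like cells it was also 1 with a 20% mitochondrial limit and with free RNA subtracted. With the mean over cells 1 member was higher in early spermatocyte-like cells and 3 in cluster 6. With a minimum of 20 UMIs 1 was higher in spermatogonia, 1 in early spermatocytes, 6 in elongating spermatids and 3 in Sertoli-like cells. With no minimum, 2 were higher and 10 lower in spermatogonium-like cells, 2 and 5 in early spermatocyte-like cells, 11 and 3 in cluster 6, 4 and 5 in mid to late spermatocyte-like cells, 10 and 3 in round and 11 and 2 in elongating spermatid-like cells, 6 and 2 in Sertoli-like and 4 and 1 in Leydig-like cells. That setting counts genes with 1 UMI.

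After thinning to 2000 UMIs the log2 ratio of the share of cells with a UMI was 1.08 for Hoxd8 in mid to late spermatocyte-like cells, against 0.44 unthinned, 1.58 for Hoxd8 in round spermatid-like cells, against 0.89, and 1.55 for Hoxc9 there, against 2.18. Equal weight of clusters and low-RNA clusters put in their classes were chosen after seeing the data. The causes were not tested, apart from the lower minimum, which tests more genes. Depth limits the 24 sparse members and the somatic classes most.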
